A study of Mus musculus with 78 samples.

Results

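The structural genes of myelin were followed over 78 Affymetrix arrays of mouse brain, 1 array per RNA sample. They are 9 genes, Mbp, Mog, Mag, Mobp, Cnp, Mal, Cldn11, Ugt8a and Fa2h, of 18193 genes with a probe set that names 1 gene. They were taken by name, and where a gene had several probe sets, the brightest over all arrays stood for it. The 78 arrays form 26 groups of 3 biological replicates, as labelled, at 3 ages: embryos of day 14 (E14), newborns (P0) and pups of postnatal day 14 (P14). The E14 groups were Lis1 ko/cko, Lis1 ko/+, Ndel1 ko/cko, Ndel1 ko/+, Dcx ko/Y, 14-3-3 epsilon ko/ko, wild type of mixed background A and wild type of mixed background B. At P0 the same genotypes were measured, with 14-3-3 epsilon ko/ko on the inbred background, and with Ndel1 ko/+ inbred and wild-type inbred animals added. The P14 groups were Lis1 ko/cko, Lis1 ko/+, Ndel1 ko/cko, Ndel1 ko/+, a separate Ndel1 ko/+ group labelled as mix background, inbred wild type, mixed A and mixed B. The labels write Ndel for Ndel1, title the inbred animals 129s6, and name neither a Cre driver nor the mixed background of a mutant. They also do not say what the cko allele leaves intact, or whether a sample pools animals.

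Myelin is the layered membrane that oligodendrocytes wrap around axons in the central nervous system, and in the mouse brain most of it is laid down after birth. Its compact layers are held together by basic proteins such as MBP, its surface and inner face carry MOG and MAG, and its lipids are rich in galactosylceramide. Oligodendrocytes arise from precursors under transcription factors such as OLIG1, OLIG2 and SOX10, and MYRF drives the myelin genes once the cells mature. The mutated genes belong to the study's question on neuronal migration: Pafah1b1 encodes LIS1, which regulates the motor dynein together with NDEL1, Ywhae encodes 14-3-3 epsilon, and Dcx encodes doublecortin.

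Several arrays stood apart or went against their labels. On the 3 E14 arrays labelled 14-3-3 epsilon ko/ko, Ywhae read 12.68, 12.92 and 9.97, against 12.8 to 13.11 on the other E14 arrays, so 2 of them keep it. Ndel1 was at 10.51 to 10.58 in mix-labelled Ndel1 ko/+ brains at P14, no lower than the 10.23 to 10.44 of the inbred and mixed A wild types, so that group is named by its label only. In 2 more groups, likewise named by their labels only, Ndel1 was at or close to the wild-type level. On the E14 arrays labelled Ndel1 ko/cko, Ndel1 read 9.87, 9.79 and 9.8, against 9.82 to 9.94 in mixed A and 9.88 to 9.92 in mixed B. They were thus just below mixed B, while Ndel1 ko/+ was at 9.43 to 9.47. On the P0 arrays labelled Ndel1 ko/+ inbred it read 9.98, 9.95 and 10.25, against 9.93, 9.82 and 9.99 in inbred wild types. Pafah1b1 read 10.31 to 10.42 in Lis1 ko/cko brains and 10.15 to 10.32 in Lis1 ko/+ brains at P14, against 10.81 to 10.88 in mixed A and 10.47 to 10.49 in mixed B. At P0 it read 10.01 to 10.12 in Lis1 ko/cko and 9.91 to 10.18 in Lis1 ko/+, against 10.44 to 10.57 in mixed A, but mixed B was no higher, at 9.81 to 10.11. The first principal component held 57.62% of the variance at P14 and 39.36% at P0. It put mixed B, Ndel1 ko/cko, Ndel1 ko/+ and, at P0, Dcx ko/Y on one side and all other groups on the other, so that what sets the sides apart and the genotypes on them cannot be told apart. At E14 it held 48.45% and put 6 arrays of 4 groups on its positive side, which were replicates 1 and 3 of Lis1 ko/cko, replicate 1 of Lis1 ko/+, replicate 2 of 14-3-3 epsilon ko/ko and replicates 2 and 3 of mixed A.

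The choice of probe set decided what was seen of Mbp, which encodes the basic protein that holds the cytoplasmic faces of compact myelin together. The array carries 8 probe sets that name only Mbp, and the one with the highest mean over all arrays, 1425264_s_at, changed little with age. In mixed A brains it averaged 7.64 ± 0.05 at E14, 7.68 ± 0.12 at P0 and 8.58 ± 0.05 at P14 (log2 RMA values, SD, n = 3), on a scale where a higher value means more RNA bound by the probe set. In the same brains probe set 1433532_a_at averaged 4.67 ± 0.6 at E14, 5.3 ± 0.18 at P0 and 13.37 ± 0.07 at P14. Of the 7 other Mbp probe sets, 6 behaved like the second: they were 6.6 to 8.63 log2 units higher at P14 than at P0 in the mixed wild types. The remaining one, 1425263_a_at, was 0.86 ± 0.3 higher and did not pass the test. Values under the name Mbp below are those of 1425264_s_at unless another probe set is given, and they do not show the change that the other 6 show.

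**Figure D1:**
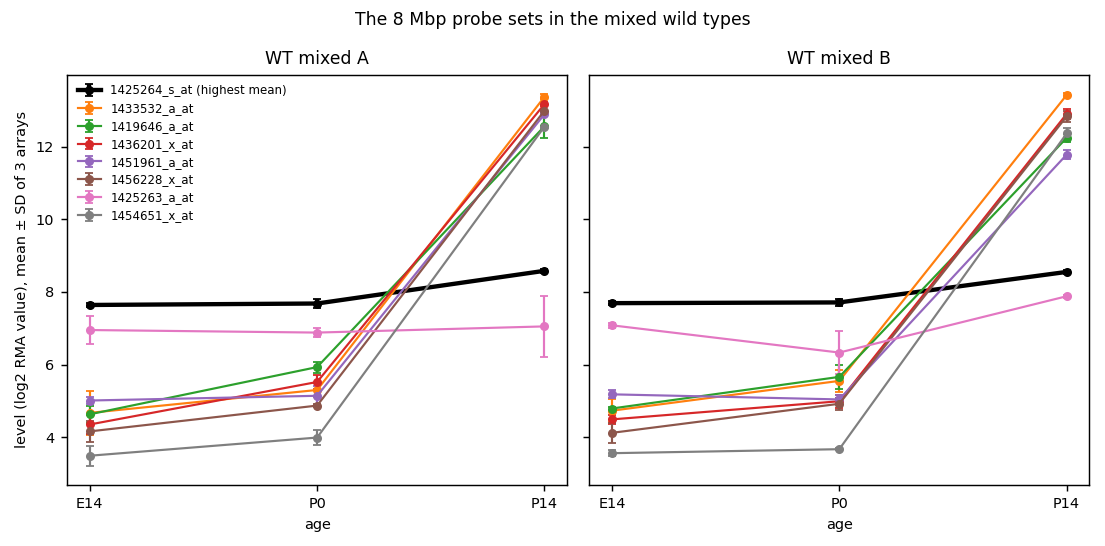
Mean level (log2 RMA value) ± SD of 3 arrays for each of the 8 Mbp probe sets by age, mixed A left and mixed B right. The black line, the probe set with the highest mean, lies at 7.64, 7.68 and 8.58 in mixed A, while 6 coloured lines climb to between 11.78 and 13.42 at P14 in either background.

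All 9 genes were higher at P14 than at P0 in the mixed wild types. A gene was called higher or lower at a Benjamini-Hochberg adjusted p under 0.05 in limma over all genes tested, here 12864. Where both mixed wild types served, both differences had to have the same sign, the larger p was used, and the change printed averages the pair. Of all genes tested 34.3% were called higher and 22.1% lower in the same comparison. Against mixed A alone and against mixed B alone the count was also 9, with 44.1% and 39.3% of all genes called higher. The count of 9 cannot be read against this share for 4 members, Mog, Mag, Mobp and Fa2h. They passed the filter on low values (a group mean of at least 5.253, the median of all values) only through P14, so they had to differ, and their differences are given below with no fold or p. In bulk tissue, more or fewer cells of a type and more or less RNA per cell cannot be told apart.

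Among the proteins of the myelin membrane, Mobp, which encodes a basic protein of compact myelin, read 10.27, 10.07 and 10.04 at P14, against 4.15, 4.42 and 4 at P0, on the 3 arrays of mixed A at each age. In mixed B it read 9.23, 8.81 and 9 at P14, against 4.1, 4.12 and 4.22 at P0. The P14 arrays were thus far above all P0 arrays, and the mean difference was 5.4 ± 0.13 log2 units (SE), with the P0 levels below the filter. Mal, which encodes a proteolipid of myelin and of sorted membranes, was at 8.88, 8.74 and 8.94 at P14 and 5.85, 5.91 and 6.28 at P0 in mixed A. Mixed B gave 8.36, 8.25 and 8.52 at P14 and 5.9, 6.09 and 6.21 at P0. Its rise was 2.57 ± 0.13 (adjusted p = 5.42e-13), and the second Mal probe set, 1417275_at, rose by 5.33 ± 0.14. The other Mobp probe sets that passed the filter differed by 7.42, 7.37 and 6.56, so the size of the difference varies between probe sets of 1 gene.

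Mog and Mag encode immunoglobulin-type proteins of the outer myelin surface and of the membrane facing the axon. Mog read 8.81, 8.65 and 8.76 at P14 in mixed A, against 3.31, 3.23 and 3.52 at P0. The mixed B arrays read 7.76, 7.55 and 8.1 at P14, against 3.23, 3.2 and 3.32 at P0. The P0 values lie close to the lowest value of the whole table, 2.606, and the difference was 4.97 ± 0.12, from a P0 level below the filter. Mag was at 10.37, 10.12 and 10.16 at P14 and at 4.83, 4.65 and 4.65 at P0 in mixed A. In mixed B it was at 9.09, 8.83 and 9.33 at P14 and at 5.13, 4.71 and 4.88 at P0. No array of one age reached the range of the other, and the difference was 4.84 ± 0.15, again with P0 below the filter.

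Cnp encodes a phosphodiesterase of the uncompacted, cytoplasm-containing parts of myelin, and Cldn11 the tight-junction protein that seals its layers. Cnp was at 12.69, 12.71 and 12.72 at P14 and at 9.35, 9.08 and 9.55 at P0 in mixed A. It was at 12.67, 12.51 and 12.64 at P14 and at 9.6, 9.54 and 9.4 at P0 in mixed B. Its arrays were already above the filter before birth, and it rose by 3.24 ± 0.12 (9.42-fold, adjusted p = 1.41e-15). Cldn11 read 9.56, 9.28 and 9.57 at P14 and 5.87, 6.16 and 6.34 at P0 in mixed A, and 9.73, 9.68 and 9.81 at P14 and 5.96, 6 and 5.98 at P0 in mixed B. The rise was 3.55 ± 0.38 (adjusted p = 7.03e-08), with the widest error of the 9 genes in this comparison.

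The last pair make myelin lipid. Ugt8a encodes the enzyme that joins galactose to ceramide, and Fa2h the hydroxylase of the fatty acid in that lipid. Ugt8a read 10.3, 10.22 and 10.5 at P14 and 5, 4.95 and 5.61 at P0 in mixed A, and 10.34, 10.21 and 10.42 at P14 and 5.98, 5.55 and 5.22 at P0 in mixed B. It rose by 4.95 ± 0.21 (adjusted p = 7.52e-15). Fa2h read 8.93, 8.59 and 8.69 at P14 and 4.02, 4.07 and 4.4 at P0 in mixed A. In mixed B it read 8.32, 8.28 and 8.19 at P14 and 4.38, 4.35 and 4.3 at P0. The difference for Fa2h was 4.25 ± 0.12, with P0 below the filter, and none of its P14 arrays overlapped with those of P0. The median gene tested was 0.13 higher at P14 than at P0, and relative to it the 9 rises were between 0.74 and 5.27.

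The inbred wild type also gave 9 calls between P14 and P0, 4 of them for the genes that pass the filter only through P14, where 38% of all genes were called higher and 33.8% lower. The changes ran from 0.67 for Mbp to 6.29 for Mobp, with a median over the genes of 4.62. Around the 9 genes, 16 of 17 other myelin and oligodendrocyte genes tested were called higher in the mixed wild types. They were led by Bcas1 at 3.73 ± 0.24, Pllp at 3.6 ± 0.1 and Ermn at 3.59 ± 0.17, which encode proteins of myelinating oligodendrocytes. Of 7 oligodendrocyte transcription factors tested, 5 were called higher, among them Myrf at 2.87 ± 0.14, and Tcf7l2 was called lower at -2.66 ± 0.69. Of 10 enzymes of fatty acid and sphingolipid synthesis 8 were called higher, and the 2 largest changes were those of Elovl7 at 2.49 ± 0.11 and Elovl1 at 1.48 ± 0.12, which lengthen fatty acids. Of the genes in these lists, Ermn, Opalin, Aspa, Enpp6, Gjb1, Myrf and Elovl7 also passed the filter only through P14, with no earlier group mean over 5.22. Such genes had to differ, so the counts of these lists cannot be read against the share of all genes. The median change was 4.25 over the 9 myelin genes, 2.4 over the other myelin genes, 1.52 over the factors, 0.47 over the lipid enzymes and 0.13 over all genes tested.

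**Figure D2:**
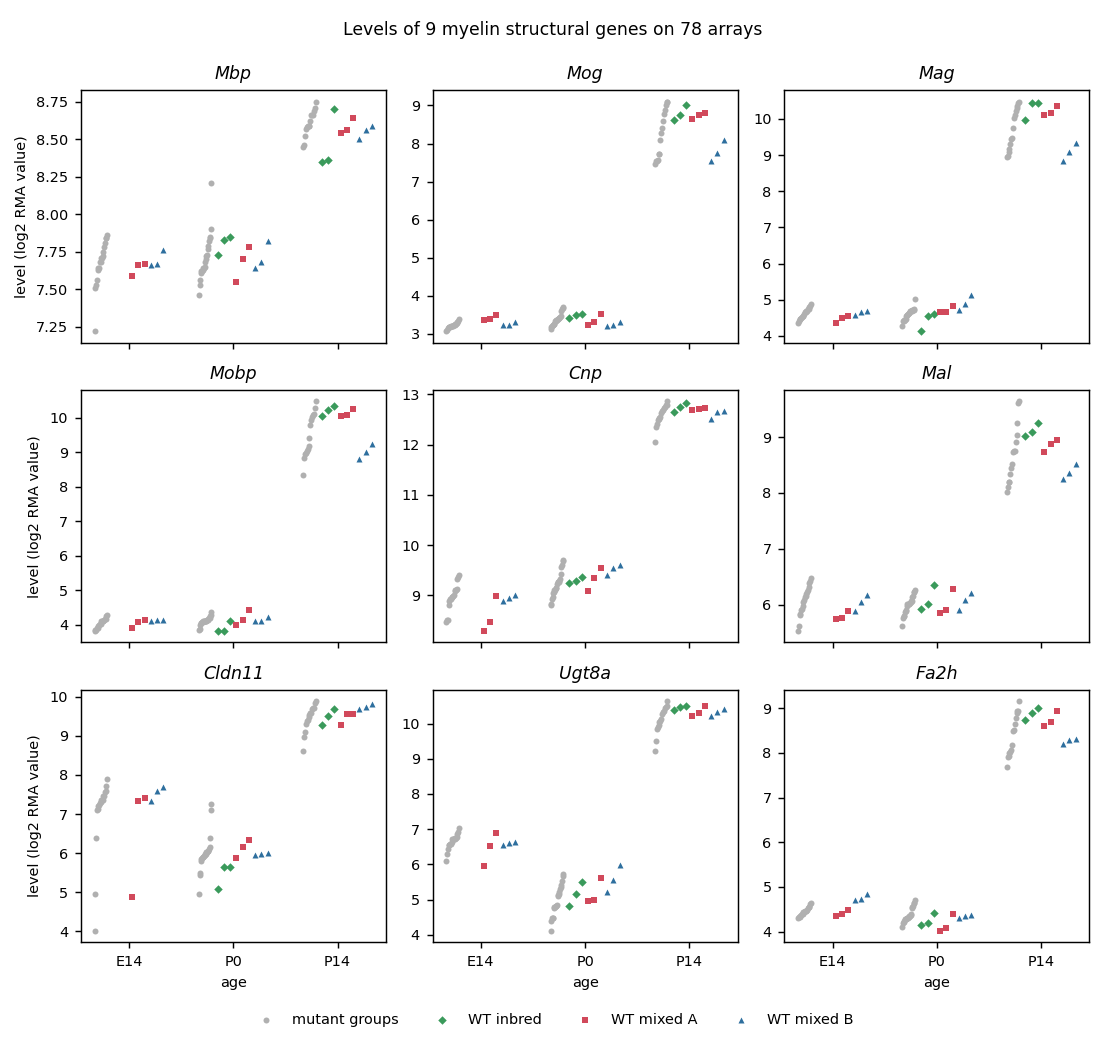
Level of each of the 9 genes on every array (log2 RMA value, a separate vertical axis per gene) by age; within an age, mutant groups stand left of inbred, mixed A and mixed B wild types, each sorted by value. All P14 arrays lie above all earlier arrays for each gene, by the least for Mbp and Cldn11; Cldn11 has 3 E14 arrays between 4.02 and 4.95, and Mbp stays between 7.22 and 8.75.

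Promoter sequences of 7 of the 9 genes were found in RefSeq (GRCm38.p6), as 9 windows since Mag has 3, and the 250 bases before each start were searched on both strands. Mbp and Fa2h had none in the table. The letters searched were ACAAAG and ACAATG (SOX family), CTGGNAC (a loose form of the MYRF motif), and CACCTG and CAGCTG (E-box). N stands for any base, so a match to CTGGNAC need not be a MYRF motif. Windows of 3 genes, Cnp, Mag and Mobp, held ACAAAG, which occurs in 16.5% of all 32851 windows of this length. Cnp, Mag and Mog held CTGGNAC, against 16.1% of all windows, and Cnp, Mag and Ugt8a held CACCTG, against 17.2%. Mag counts if any of its 3 windows, which partly overlap, holds a match. These counts of genes are thus not the same measure as the shares of single windows. None held ACAATG or CAGCTG, which occur in 10.7% and 13% of all windows. The window of Mobp held ACAAAG 6 times, all on the opposite strand, and it is the 1 window of 32851 with 6 or more (a count looked up after the Mobp matches were seen). A window is shown for each of the 4 genes with ACAAAG or CTGGNAC, Mobp, Mag, Cnp and Mog. They were also among the genes that differed at P14 below. Matches to these motifs are in capitals, and a match is not a shown binding site. For Mag, which has 3 starts, the first window of the table is given.
Mobp, chr9:120149492-120149741, plus strand: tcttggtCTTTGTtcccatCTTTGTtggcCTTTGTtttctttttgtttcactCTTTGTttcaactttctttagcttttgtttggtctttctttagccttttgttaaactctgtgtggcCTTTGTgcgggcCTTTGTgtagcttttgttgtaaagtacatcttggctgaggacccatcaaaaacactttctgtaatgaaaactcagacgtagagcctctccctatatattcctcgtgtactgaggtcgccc
Mag, chr7:30914864-30915113, minus strand: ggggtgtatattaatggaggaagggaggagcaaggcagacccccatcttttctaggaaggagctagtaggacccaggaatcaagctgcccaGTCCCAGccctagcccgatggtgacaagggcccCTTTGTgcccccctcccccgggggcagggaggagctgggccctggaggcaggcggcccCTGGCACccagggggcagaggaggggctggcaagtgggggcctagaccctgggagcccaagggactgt
Cnp, chr11:100574689-100574938, plus strand: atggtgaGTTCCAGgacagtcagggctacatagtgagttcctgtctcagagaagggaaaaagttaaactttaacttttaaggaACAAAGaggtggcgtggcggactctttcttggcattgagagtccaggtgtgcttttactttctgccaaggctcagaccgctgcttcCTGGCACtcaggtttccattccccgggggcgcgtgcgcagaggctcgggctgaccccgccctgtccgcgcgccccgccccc
Mog, chr17:37023399-37023648, minus strand: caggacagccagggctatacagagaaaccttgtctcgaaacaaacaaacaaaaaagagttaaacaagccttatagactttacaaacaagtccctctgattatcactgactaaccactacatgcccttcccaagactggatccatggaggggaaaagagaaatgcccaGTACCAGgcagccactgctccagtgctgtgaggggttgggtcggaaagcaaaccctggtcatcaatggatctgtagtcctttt

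Between E14 and P0 few of the 9 genes passed the test. In the mixed wild types 1 was called higher at P0 and 1 lower, with all 9 tested, against 14.8% of all genes called higher and 35% lower. Within mixed A alone 1 was called higher and 1 lower (25.1% and 43.4% of all genes), and within mixed B alone 1 higher and 3 lower (17.3% and 44.5%). For Mog, Mag, Mobp and Fa2h these counts cannot be read against the shares. They lie below the filter at both ages and were in this fit only through P14. Cnp was at 9.35, 9.08 and 9.55 at P0 in mixed A, against 8.98, 8.46 and 8.29 at E14, and at 9.6, 9.54 and 9.4 in mixed B, against 8.89, 9.01 and 8.94. Every P0 array was above every E14 array of its background, and Cnp was higher by 0.66 ± 0.12 (adjusted p = 0.000475). Ugt8a was at 5, 4.95 and 5.61 at P0 in mixed A, against 6.52, 5.96 and 6.9 at E14, and at 5.98, 5.55 and 5.22 in mixed B, against 6.65, 6.55 and 6.61. Within each background the ages did not overlap. Ugt8a fell by 1.15 ± 0.21 (change of -1.15, adjusted p = 0.000279) before its later rise. Its second probe set, 1419064_a_at, fell too, by 0.51 ± 0.12 (adjusted p = 0.0176).

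Of the Mbp probe sets that rose after birth 4 were also called higher at P0 than at E14, namely 1419646_a_at by 1.08 ± 0.16, 1436201_x_at by 0.84 ± 0.12, 1456228_x_at by 0.76 ± 0.15 and 1433532_a_at by 0.73 ± 0.21. The probe set with the highest mean was not (0.03 ± 0.09, adjusted p = 1). The median gene tested was 0.19 lower at P0. Oligodendrocyte precursor genes went with them: Pdgfra, the receptor that marks these cells, was higher by 1.19 ± 0.21, Gpr17 by 1.09 ± 0.19 and Lhfpl3 by 1.04 ± 0.17, which are 3 of 6 tested. Of 7 transcription factors tested, Olig1 (2 ± 0.11) and Sox10 (0.69 ± 0.15) were called higher and Tcf7l2 (-2.06 ± 0.69) lower. Among the other myelin genes Cryab (1.45 ± 0.19) and Plekhb1 (1.22 ± 0.15) were 2 of 4 called higher, and Ppp1r14a (-1.36 ± 0.18) was the 1 called lower of 17 tested.

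Cldn11 at E14 varied with genes of another tissue, the meninges, where it is also expressed. It was at 7.34, 7.42 and 4.89 in mixed A and at 7.7, 7.59 and 7.33 in mixed B, and its change of -0.99 ± 0.38 from E14 to P0 did not pass the test (adjusted p = 0.409). Within mixed B alone Cldn11 was 1 of the 3 genes called lower at P0, with a change of -1.56, where 44.5% of all genes were called lower. The low mixed A array was also low for 8 genes of meninges and fibroblasts, with a mean of 5.92 against 8.4 and 7.94 on the other mixed A arrays. Over all E14 arrays Cldn11 ranged from 4.02 to 7.9, and the array with the lowest Cldn11 (Lis1 ko/+ replicate 1) had the lowest meningeal mean, 5.33. The array with the highest Cldn11, replicate 2 of Lis1 ko/cko, had the highest mean, 9. The correlation of Cldn11 with the meningeal mean was 0.96 over 24 E14 arrays and 0.91 without the 2 arrays farthest from the median. It was 0.58 over the 18 arrays that remain without the 6 on the positive side of the first component. For Cnp these values were 0.83, 0.76 and 0.67. They describe genes read on the same arrays, and the part of meninges in the Cldn11 levels was not tested.

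The mixed wild types themselves differed at P14. Of the 9 genes 5 were higher in mixed A than in mixed B and none lower, where 37.5% of all 12296 genes were called higher and 15.2% lower, so the share of the members is not far from that of all genes. Mag read 10.37, 10.12 and 10.16 in mixed A, against 9.09, 8.83 and 9.33 in mixed B, a difference of 1.13 ± 0.15 (adjusted p = 1.2e-06). Mobp differed by 1.12 ± 0.18 (adjusted p = 1.81e-05), with 10.27, 10.07 and 10.04 in mixed A, against 9.23, 8.81 and 9 in mixed B. Both genes were clear of overlap between the backgrounds. Mog differed by 0.94 ± 0.17 (adjusted p = 8.19e-05), Mal by 0.48 ± 0.16 (adjusted p = 0.0179) and Fa2h by 0.48 ± 0.17 (adjusted p = 0.022), also without overlap. Cnp (0.1 ± 0.09), Ugt8a (0.02 ± 0.15), Mbp (0.03 ± 0.09) and Cldn11 (-0.26 ± 0.18) did not pass the test. At P0, where 5 of the 9 passed the filter, none was called or had an unadjusted p under 0.05 in limma, against 18.1% of all genes called higher and 10.7% lower. After quantile normalization over all arrays the count at P14 was 3, as Mal (0.36, adjusted p = 0.0538) and Fa2h (0.36, adjusted p = 0.0677) did not pass.

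For Cnp and Mbp this comparison turned on the probe set. The 2 other Cnp probe sets, 1449296_a_at and 1418980_a_at, were higher in mixed A by 1.21 ± 0.13 and 1.11 ± 0.12 (adjusted p = 1.34e-07 and 2.42e-07), while the one with the highest mean was not called. On 1418980_a_at the arrays read 10.92, 10.77 and 10.9 in mixed A, against 9.87, 9.61 and 9.77 in mixed B. Of the 7 other Mbp probe sets, 1451961_a_at was higher by 1.12 ± 0.11, 1419646_a_at by 0.32 ± 0.13 and 1436201_x_at by 0.27 ± 0.1. The flat 1425263_a_at was lower by 0.83 (change of -0.83 ± 0.27), and 3 did not pass the test. Mobp showed the reverse of Cnp, since 1421010_at differed by 0.08 ± 0.18 while 1433785_at and 1450088_a_at were higher by 0.7 ± 0.16 and 0.79 ± 0.22. The probe sets of Cnp, Mbp and Mobp thus disagree on the difference between the backgrounds.

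Genes of other cells also differed between mixed A and mixed B at P14, where 37.5% of all genes were called higher and 15.2% lower. In mixed A over mixed B at P14, 10 of 17 other myelin genes were called higher and 1 lower, 4 of 6 transcription factors higher and 1 lower, 5 of 8 astrocyte genes higher and 1 lower, 4 of 6 endothelial genes higher, 5 of 8 meningeal genes higher, and 5 of 8 neuronal genes lower and 1 higher. Gal3st1, which adds sulfate to galactosylceramide, was higher by 1.08 ± 0.12, and Gfap, the astrocyte filament protein, by 1.28 ± 0.21, whereas Sox8 was lower (-2.22 ± 0.19). The mean level of the 8 meningeal genes was 7.7 to 7.71 in mixed A and 7.15 to 7.37 in mixed B. The 3′ minus 5′ difference of the actin control, a sign of RNA length, was 0.956, 0.497 and 0.553 log2 units in mixed A and 0.662, 0.666 and 0.707 in mixed B. All of these arrays lie on the 2 sides of the first component described above, and the part of that divide in the differences of the myelin genes was not tested.

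The rise after birth was larger in mixed A for 4 genes, the same 4 that lie below the filter at P0. With P0 levels that low, their difference in rise largely repeats the P14 difference between the backgrounds and is not separate from it. The same limit holds for each difference in rise of these 4 genes given below. In 1 fit of all 78 arrays, the rise from P0 to P14 in mixed A minus that in mixed B was 1.33 ± 0.19 for Mag (adjusted p = 2.82e-06), 1.08 ± 0.2 for Mobp (adjusted p = 0.000227), 0.83 ± 0.18 for Mog (adjusted p = 0.00164) and 0.65 ± 0.19 for Fa2h (adjusted p = 0.0153). Of all 13052 genes 8.55% were called in this direction and 3.36% in the other. The other 5 genes ranged from -0.41 for Cldn11 to 0.53 for Mal and were not called. Mag rose by 5.51 in mixed A and by 4.18 in mixed B. For inbred brains, the difference in rise was called for 4 genes against mixed B alone (3.06% of all genes), for none against mixed A alone, and for none with both required, where 0% of all genes were called.

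The inbred wild type resembled mixed A at P14 in value, though the test does not show that they are alike. Against both mixed wild types none of the 9 genes was called, and none had an unadjusted p under 0.05 in limma, with 0.0407% of all genes called higher and 0.203% lower. Against mixed A alone the differences ran from -0.11 to 0.27 with no call, where 0.813% of all genes were called higher and 3.39% lower, and against mixed B alone 5 genes were called higher, where 29.3% of all genes were. Mal had the only levels above both, with 9.09, 9.26 and 9.02 in inbred brains, against 8.88, 8.74 and 8.94 in mixed A and 8.36, 8.25 and 8.52 in mixed B, but its difference of 0.51 ± 0.16 did not pass (adjusted p = 0.909). At P0 none of the 5 genes tested was called in inbred over both mixed wild types, where 0.747% of all genes were called higher and 0.255% lower.

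**Figure D3:**
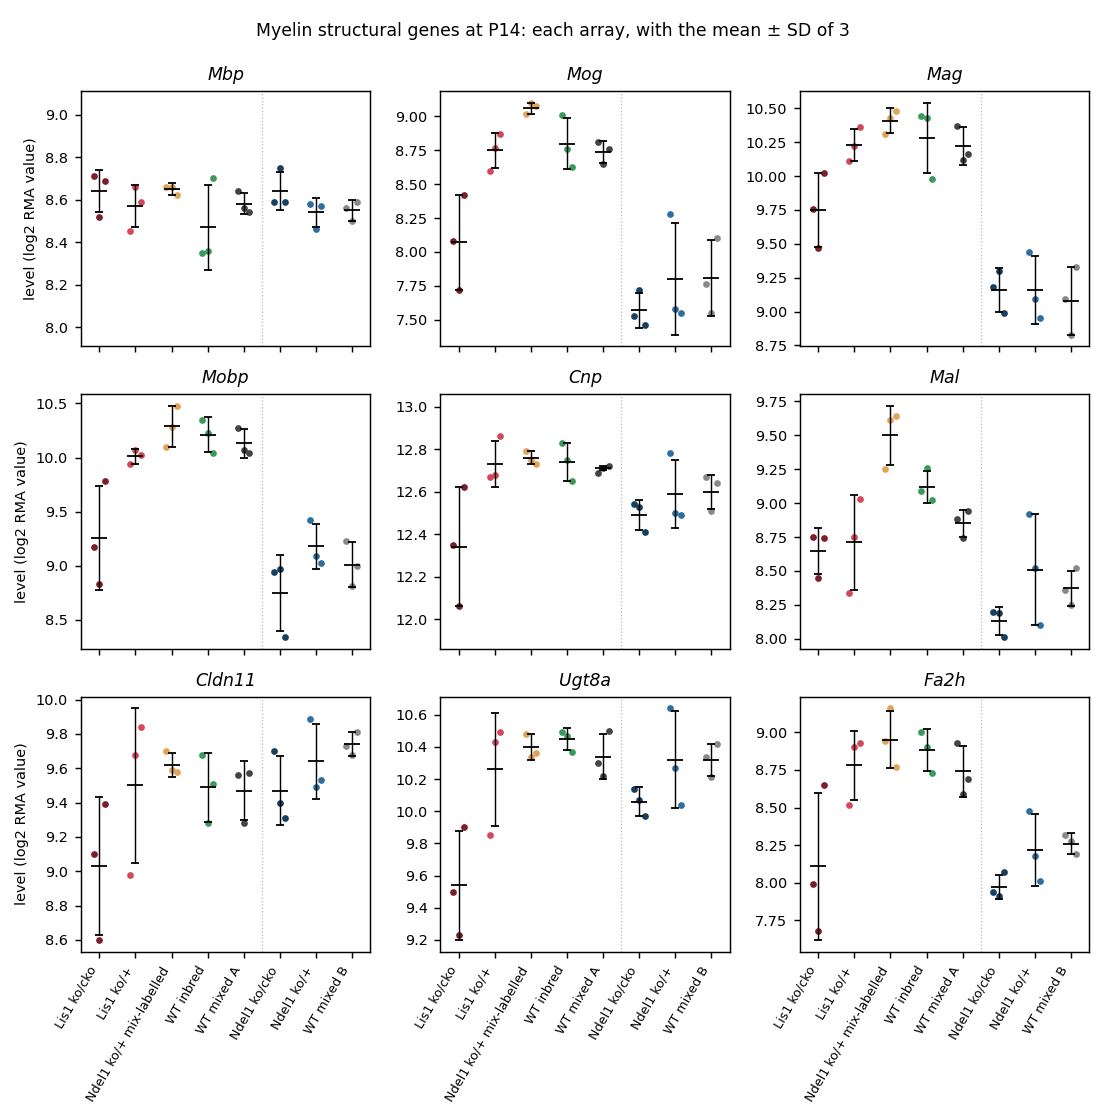
Level of the 9 genes at P14 on each array (log2 RMA value, a separate axis per gene) in 8 groups, with the mean ± SD of 3 arrays as bars; groups left and right of the dotted line lie on the 2 sides of the first component. Mog, Mag and Mobp in mixed A and inbred brains stand above all groups right of the line, and Lis1 ko/cko has the lowest mean of Cnp (12.34), Ugt8a (9.54) and Cldn11 (9.03).

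Lis1 ko/cko brains had lower levels of 6 of the 9 genes than Lis1 ko/+ brains at P14, and none was higher. Of all genes 2.86% were called lower and 5.16% higher in that comparison. The fallen genes encode the surface proteins MOG and MAG, the compact myelin protein MOBP, CNP and both lipid enzymes. The first component puts both groups together. Ugt8a read 9.5, 9.23 and 9.9 in Lis1 ko/cko brains, against 9.85, 10.43 and 10.49 in Lis1 ko/+ brains, and fell by 0.71 ± 0.15 (change of -0.71, 0.61-fold, adjusted p = 0.00956). Only the first Lis1 ko/+ array came within the range of Lis1 ko/cko. Mobp read 9.17, 8.83 and 9.78 in Lis1 ko/cko brains, against 9.94, 10.07 and 10.02 in Lis1 ko/+ brains (-0.75 ± 0.18, adjusted p = 0.0159).

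Cnp was at 12.35, 12.06 and 12.62 in Lis1 ko/cko brains, against 12.67, 12.68 and 12.86 in Lis1 ko/+ brains (-0.39 ± 0.09, adjusted p = 0.016). Mog was at 8.08, 7.72 and 8.42, against 8.6, 8.77 and 8.87 in Lis1 ko/+ (-0.67 ± 0.17, adjusted p = 0.0209). Neither gene overlapped between the groups. Mag was at 9.76, 9.47 and 10.02 in Lis1 ko/cko, against 10.11, 10.22 and 10.36 in Lis1 ko/+ (-0.48 ± 0.15, adjusted p = 0.0431), also without overlap. Fa2h was at 7.99, 7.68 and 8.65, against 8.52, 8.9 and 8.93 in Lis1 ko/+ (-0.68 ± 0.17, adjusted p = 0.0202), and 1 array of each group overlapped. Cldn11 at -0.47 ± 0.18 (adjusted p = 0.106), Mal at -0.06 ± 0.16 (adjusted p = 0.859) and Mbp at 0.08 ± 0.09 (adjusted p = 0.627) did not pass. On the Mbp probe sets that rise after birth, 1456228_x_at and 1436201_x_at were lower in Lis1 ko/cko (-0.39 ± 0.11 and -0.33 ± 0.1, adjusted p = 0.0247 and 0.0321), and the other 4 did not pass, at -0.2 to 0.01.

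Single arrays weighed heavily in this comparison. Replicate 2 of Lis1 ko/cko was the lowest of its group for 9 of 9 genes and replicate 3 the highest for 7, and replicate 1 of Lis1 ko/+ was the lowest of its group for 9 of 9. No gene was called without Lis1 ko/cko replicate 1, without its replicate 2, or without Lis1 ko/+ replicate 3. Without Lis1 ko/+ replicate 2 the 2 genes called were Cnp and Ugt8a, and without Lis1 ko/cko replicate 3 or Lis1 ko/+ replicate 1 it was 7, Cldn11 joining the 6. Differences of 7 or 8 of the 9 genes were negative in each of these runs. On the first component Lis1 ko/cko arrays stood at -25, -29.1 and -21.1, against -28.8, -13.6 and -12.4 for Lis1 ko/+, so the Lis1 ko/+ array with the lowest myelin levels stood among those of Lis1 ko/cko.

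Other oligodendrocyte genes were examined in the same comparison, where 2.86% of all genes were called lower and 5.16% higher. Of 17 other myelin genes 14 differences were negative, with a median of -0.28 against 0 over all genes tested; Gsn (-0.55 ± 0.15) and Bcas1 (-0.37 ± 0.09) were called lower and Apod (0.88 ± 0.17) higher. All 6 transcription factors tested had negative differences and Olig2 was called lower (-0.58 ± 0.16). Gpr17, a receptor of late precursors, was lower by 0.89 (change of -0.89 ± 0.21), while C1ql1 was higher (0.51 ± 0.14). Elovl7 was the 1 of 10 lipid enzymes called, at -0.83 ± 0.22. Of the meningeal genes 2 of 8 were higher, Foxc1 (0.88 ± 0.22) and Igf2 (0.64 ± 0.17), and the mean of the 8 was 7.76, 8.09 and 7.61 on the Lis1 ko/cko arrays and 7.23, 7.48 and 7.7 on the Lis1 ko/+ arrays. The Lis1 ko/cko array with the most meningeal signal was thus the one with the lowest myelin levels. Among the Lis1 ko/+ arrays the order was the opposite. Replicate 1 had the lowest meningeal mean (7.23) and the lowest mean of the 9 myelin genes (9.5), and replicate 3 the highest of both (7.7 and 9.89). Of 6 endothelial genes tested 5 differences were negative and Slco1c1 was called lower (-0.42 ± 0.12), and the mean of the list was 7.3, 7.5 and 7.75 on the Lis1 ko/cko arrays and 7.57, 7.78 and 7.87 on the Lis1 ko/+ arrays. The part of these other cells in the differences of the myelin genes was not tested.

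Against the wild types the answer depended on the background. Compared with mixed A alone, the wild type on its side of the first component, Lis1 ko/cko brains were lower for Mobp (-0.87 ± 0.18, adjusted p = 0.00456), Ugt8a (-0.8 ± 0.15, adjusted p = 0.00333), Mog (-0.67 ± 0.17, adjusted p = 0.0133), Fa2h (-0.63 ± 0.17, adjusted p = 0.0179), Mag (-0.47 ± 0.15, adjusted p = 0.0349) and Cnp (-0.36 ± 0.09, adjusted p = 0.0137). These are 6 of 9, where 8.16% of all genes were called lower, and the Lis1 ko/cko arrays are the same as in the comparison with Lis1 ko/+. Endothelial genes were lower there too, 4 of 6 tested, among them Tek (-0.88 ± 0.2) and Slco1c1 (-0.61 ± 0.12). The mean of their list was 7.3, 7.5 and 7.75 in Lis1 ko/cko, against 7.91, 7.95 and 7.98 in mixed A, without overlap, and its part in the myelin differences was not tested. Leaving out an array at a time gave 1 to 7 genes, 2 without Lis1 ko/cko replicate 1 (Mobp and Ugt8a), 1 without its replicate 2 (Ugt8a) and 7 without its replicate 3, and 4 or 5 without a mixed A array. Compared with mixed B alone, Mag was higher (0.67 ± 0.15, adjusted p = 0.000423), and Ugt8a (-0.78 ± 0.15, adjusted p = 0.00013), Cldn11 (-0.71 ± 0.18, adjusted p = 0.00179) and Cnp (-0.26 ± 0.09, adjusted p = 0.0194) were lower, where 38.4% of all genes were called higher and 21.3% lower. Under the rule that needs both wild types 1 gene was lower, Ugt8a, by 0.79 ± 0.15 (change of -0.79, adjusted p = 0.00813), against 2.8% of all genes, and 3.52% were called higher. All 3 of its Lis1 ko/cko arrays lay below the lowest of either wild type, 10.21. Without Lis1 ko/cko replicate 1 or replicate 2 it was not called either, and without replicate 3 the count was 4.

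Lis1 ko/+ brains gave no such difference at P14. Against mixed A none of the 9 genes was called, with differences of -0.15 to 0.05 and 0.00813% of all genes called lower. With both wild types required none was called or had an unadjusted p under 0.05 in limma, and 0% of all genes were called. Against mixed B 4 were called higher, where 34.7% of all genes were. The rise from P0 to P14 was smaller in Lis1 ko/cko than in mixed A for 3 genes, Mog (-0.78 ± 0.18, adjusted p = 0.00594), Fa2h (-0.76 ± 0.19, adjusted p = 0.00902) and Mobp (-0.62 ± 0.2, adjusted p = 0.0441), all 3 below the filter at P0, where 3.18% of all genes were called in this direction. Against mixed B alone the rise of Mag was larger in Lis1 ko/cko (1.04 ± 0.19), where 19% of all genes were called in that direction. With both wild types required none of the 9 was called, against 2.22% of all genes with a larger and 0.644% with a smaller rise.

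**Figure D4:**
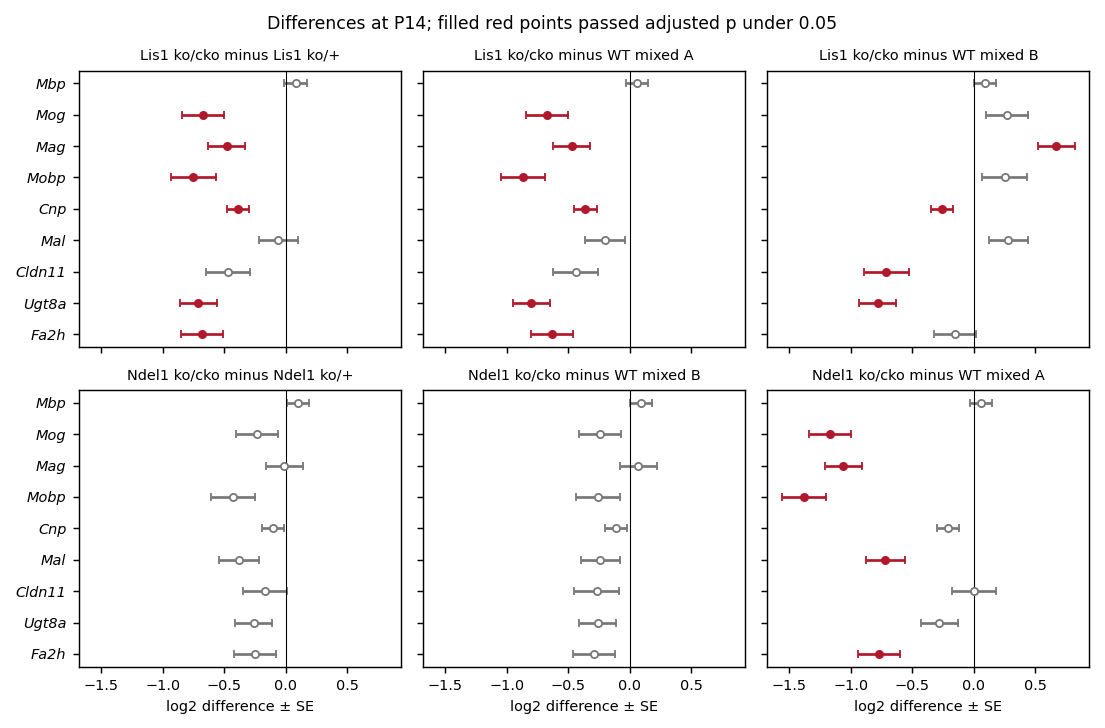
Differences at P14 (log2 units ± SE) of the 9 genes in Lis1 ko/cko (upper panels) and Ndel1 ko/cko (lower panels) against the heterozygous group and each mixed wild type; filled red points passed adjusted p under 0.05. Lis1 ko/cko has 6 filled points left of 0 against Lis1 ko/+ and against mixed A, and Ndel1 ko/cko has 5 against mixed A and none in its other panels.

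Ndel1 ko/cko brains were compared in the same way. Against Ndel1 ko/+ none of the 9 genes was called, with 8 of 9 differences negative and a median of -0.23, where 0.146% of all genes were called lower and 0.163% higher. The largest was that of Mobp, which read 8.94, 8.97 and 8.34 in Ndel1 ko/cko brains, against 9.42, 9.09 and 9.03 in Ndel1 ko/+ brains (-0.43 ± 0.18, adjusted p = 0.527). Against mixed B, the wild type on its side of the first component, 7 of 9 were negative with a median of -0.24, and none was called, where 0.114% of all genes were called lower and 0.0651% higher. At an unadjusted p under 0.05 no gene of the 9 passed against mixed B, and Mobp and Mal did against Ndel1 ko/+ (0.0249 and 0.0308). Against mixed A 5 were lower, Mobp by 1.38 ± 0.18 (change of -1.38), Mog by 1.17 ± 0.17 (-1.17), Mag by 1.06 ± 0.15 (-1.06), Fa2h by 0.77 ± 0.17 (-0.77) and Mal by 0.72 ± 0.16 (-0.72), where 38.5% of all genes were called lower. With both wild types required none was called or had an unadjusted p under 0.05, against 0.0651% of all genes called lower and 0.0244% higher. The rise from P0 to P14 was smaller in Ndel1 ko/cko than in mixed A for 4 genes, Mobp, Mog, Fa2h and Mag (-1.29 to -0.8), where 12% of all genes were, and for none with both wild types required (0.0383% of all genes, and 0.00766% with a larger rise). Whether the Lis1 ko/cko and Ndel1 ko/cko differences differ from each other was not tested.

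Both other Ndel1 groups at P14 showed no call with both wild types required, and 1 gene had an unadjusted p under 0.05 there, Mal in the mix-labelled group. For that group 0.0244% of all genes were called higher and 0.0895% lower, and for Ndel1 ko/+ 0%. Ndel1 ko/+ differed from mixed B by -0.1 to 0.17 with no call, and 4 genes were lower than in mixed A, where 37.6% of all genes were. The mix-labelled Ndel1 ko/+ group had positive differences from mixed A for 9 of 9 genes, 0.05 to 0.65, and none was called, where 0.244% of all genes were called higher and 0.724% lower. Its Mal arrays, at 9.25, 9.61 and 9.64 against 8.88, 8.74 and 8.94 in mixed A, came nearest (0.65 ± 0.16, adjusted p = 0.0622). Against mixed B 5 genes were higher, where 35% of all genes were.

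At P0 no mutant group gave a call under the main rule for any of the 5 genes tested, Mbp, Cnp, Mal, Cldn11 and Ugt8a. This covers Lis1 ko/cko, Lis1 ko/+, Ndel1 ko/cko, Ndel1 ko/+ and Dcx ko/Y against both mixed wild types, Ndel1 ko/+ inbred and 14-3-3 epsilon ko/ko inbred against the inbred wild type, and each ko/cko group against its ko/+ group. Of all genes, the shares called higher and lower were 0.0255% and 0.306% in Lis1 ko/cko, 0% and 0% in Lis1 ko/+, 0.136% and 0.705% in Ndel1 ko/cko, 1.43% and 2.61% in Ndel1 ko/+, and 0% and 0.0255% in Dcx ko/Y. They were 0.195% and 0.0594% in Ndel1 ko/+ inbred, 0.017% and 0.00849% in 14-3-3 epsilon ko/ko inbred, 0.153% and 0.416% in Lis1 ko/cko over Lis1 ko/+, and 5.93% and 3.21% in Ndel1 ko/cko over Ndel1 ko/+. Without replicate 1 of Lis1 ko/cko, Cldn11 was called in Lis1 ko/cko over Lis1 ko/+, higher by 1.11 ± 0.24. Ugt8a in Lis1 ko/cko brains read 4.48, 4.38 and 4.75, against 5, 4.95 and 5.61 in mixed A and 5.98, 5.55 and 5.22 in mixed B. No array overlapped, but the difference of -0.85 ± 0.22 did not pass (adjusted p = 0.21, unadjusted 0.00641). Cldn11 in the same brains read 5.88, 7.11 and 7.25, against 5.87, 6.16 and 6.34 in mixed A and 5.96, 6 and 5.98 in mixed B (0.7 ± 0.27, adjusted p = 0.374). The mean of the 8 meningeal genes was 8.21 in Lis1 ko/cko (7.84 to 8.45), against 7.89 in Lis1 ko/+ (7.8 to 8), 8.1 in mixed A (8.06 to 8.12) and 7.84 in mixed B (7.68 to 7.96), and its part in the Cldn11 levels was not tested. Against mixed B alone Cldn11 was called higher (0.77 ± 0.27), where 17.6% of all genes were, and Ugt8a (-1.05 ± 0.22) and Cnp (-0.44 ± 0.14) lower, where 15.2% were. In Lis1 ko/+ brains Ugt8a was the 1 gene lower than in mixed B alone (-0.8 ± 0.22), where 8.15% of all genes were. In 14-3-3 epsilon ko/ko inbred brains Ugt8a read 4.47, 4.84 and 4.12, against 5.15, 4.82 and 5.49 in inbred wild types (-0.68 ± 0.22, adjusted p = 0.342).

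At E14 none of the 5 genes tested was called in any of 7 comparisons. These were 6 mutants against both wild types, and mixed A against mixed B. Against mixed A alone, Cnp and Mal in Ndel1 ko/+ and Ugt8a in Dcx ko/Y had an unadjusted p under 0.05 in limma. None did against mixed B alone. In the 7 comparisons no gene had such a p, taken as the larger of 2 where both wild types served. All genes tested gave few calls there too, 0% to 0.0341% in 1 direction for the mutants (0% for Lis1 ko/cko, Lis1 ko/+, Ndel1 ko/cko and 14-3-3 epsilon ko/ko, 0.017% either way for Ndel1 ko/+, 0.0341% higher and 0.00852% lower for Dcx ko/Y), and 0.0426% higher and 0.0255% lower for mixed A over mixed B. Without the 6 arrays on the positive side of the first component, or without the 2 that keep Ywhae, none of the 5 was called either. Over the 24 arrays of E14 and 30 of P0, Mog stayed between 3.07 and 3.7, Mobp between 3.82 and 4.42, and Fa2h between 4.02 and 4.84, whereas Cnp was never below 8.29 and Mbp never below 7.22.

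Among themselves the genes other than Mbp moved together at P14 within each side of the first component. The correlation of a gene with the mean of the other 8, taken within the 15 P14 arrays on the side of mixed A, was 0.68 for Mal and 0.87 to 0.97 for Mog, Mag, Mobp, Cnp, Cldn11, Ugt8a and Fa2h. Within the 9 arrays on the side of mixed B it was 0.66 to 0.97 for these 8 genes. The Mbp probe set with the highest mean stood outside, at -0.06 and -0.08. Over all 24 P14 arrays the correlation was 0.828 to 0.944 for Mog, Mag, Mobp, Cnp, Mal and Fa2h, but 0.592 for Ugt8a and 0.319 for Cldn11. These values span several genotypes and come from genes read on the same arrays, so they describe the arrays and carry no test. Over the 26 group means the genes most like the 9 were Enpp6, Atp13a4, Tmem125, Dbndd2, Rbp4, Pgam2, Tmem88b, 4930429B21Rik, Asah2 and Daam2, at 0.997 to 0.994. This ranking rests on the gap between P14 and earlier groups. Within the 8 P14 groups the same genes gave 0.53 to 0.98, and within the 18 earlier groups -0.29 to 0.8. Over the 24 P14 arrays they were Tmem88b (0.965), Gltp (0.941), Clic4 (0.94), Prr5l (0.94), Kmt5a (0.936), Tmeff2 (0.935), Plxnb3 (0.934), Opalin (0.93), Ppp1r14a (0.928) and Nkx2-2 (0.92). For Tmem88b the value was 0.97 on the side of mixed A and 0.83 on that of mixed B, and for Opalin, a membrane protein of oligodendrocytes, 0.93 and 0.59.

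**Figure D5:**
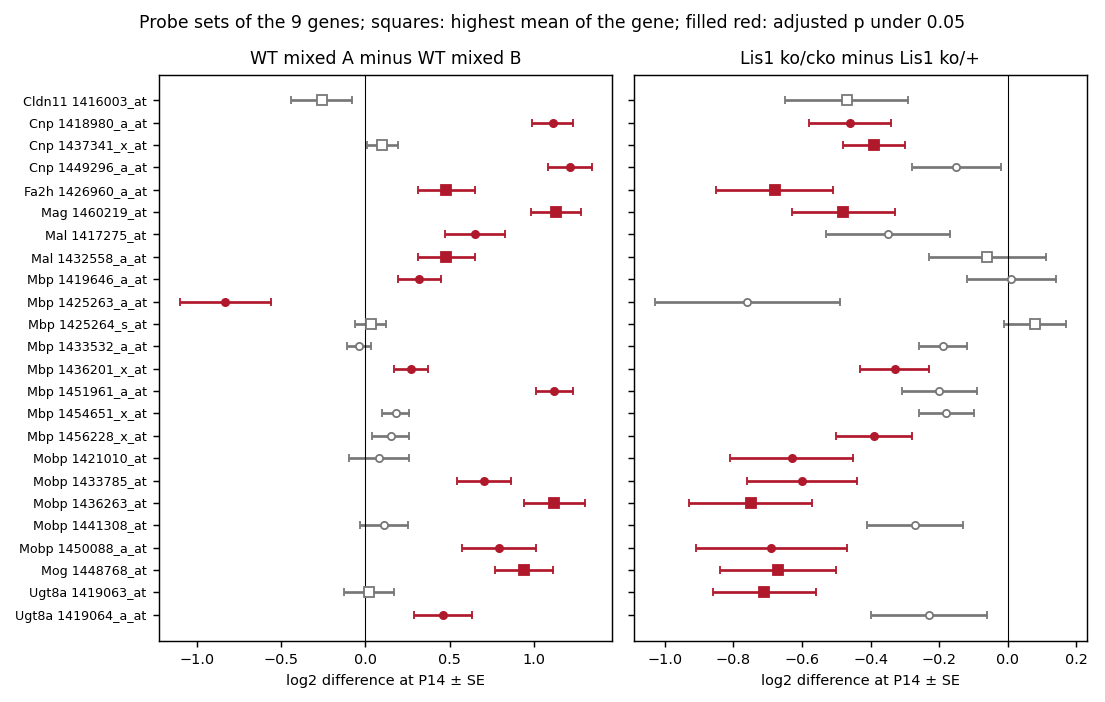
Differences at P14 (log2 units ± SE) of all 24 probe sets of the 9 genes, mixed A minus mixed B left and Lis1 ko/cko minus Lis1 ko/+ right; squares are the probe sets with the highest mean of their gene, filled red marks adjusted p under 0.05. Cnp, Mbp and Mobp each hold probe sets near 0 and probe sets near 1 on the left, while on the right the Mobp probe sets lie between -0.75 and -0.27.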

How the data were processed

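Total brain RNA of mice was measured on Affymetrix arrays, in 26 groups of 3, per the labels. The deposited values are on the log2 scale, made by the authors with RMA, per the submitters' processing notes (no version stated). Values ran from 2.606 to 14.24, and arrays give no read depth. The number of arrays limits the precision, as do levels near the bottom of the scale and differences between probe sets of a gene. Of the probe sets, 34945 name 1 gene, 932 several, 9160 none and 64 are controls. Only those naming 1 gene were used, and symbols and promoters came from GRCm38.p6. A gene took the brightest of its probe sets over 78 arrays.

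Groups were compared with limma 3.58.1 (R 4.3.3, the data.table package at 1.17.8), with a mean per group and a mean-variance trend, in 1 fit per age or over all wild types or arrays. Genes needed a group mean of at least 5.253, and p-values were adjusted (Benjamini-Hochberg) over all genes tested, with calls under 0.05. The SE beside a change measured against both wild types is the larger of the 2. An unadjusted p there is the larger of the 2 limma p-values, and a gene whose 2 differences had opposite signs could not pass. Mutants on an unstated mixed background were tested against both mixed wild types, and each alone. On simulated data for Lis1 ko/cko over Lis1 ko/+ at P14 (12296 genes, 200 of them changed), 73.6% of 1.5-fold and 96% of 2-fold changes were recovered, with 5.85% false calls. The simulated noise was drawn separately for each gene, without shifts shared by the genes of an array. These rates therefore do not cover the weight of single arrays in the real comparison.

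The genes and lists were chosen with earlier results of these data known. All 9 genes are named whatever their change, of each other list up to 3 called genes with the largest change, and the 10 genes most like the 9. Some genes of the lists are not reported here. Microglia, Schwann cell and hindbrain lists were measured too: in mixed A over mixed B at P14, 3 of 7 microglial genes were higher and 1 lower, 1 of 3 Schwann cell genes lower and 1 of 2 hindbrain genes lower. Of 6 precursor genes 2 were higher and 2 lower, and of 10 lipid enzymes 4 higher and 3 lower. Of all genes 37.5% were called higher and 15.2% lower in that comparison. Equal replicate numbers did not pair arrays: in 0 of 45 pairs of groups were all 3 correlations over 0.1 (range -0.82 to 0.67). Alternatives were a stricter filter, none, the mean of all probe sets, quantile normalization, all arrays in 1 fit, a replicate block and leaving out each array.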

Additional observations from a re-analysis of the deposited data

Results flagged for a closer look

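The rise from P0 to P14 differed between the mixed wild types for 4 of the 9 genes by a test of the difference itself. The rise in mixed A minus that in mixed B was 1.33 ± 0.19 log2 units for Mag, 1.08 ± 0.2 for Mobp, 0.83 ± 0.18 for Mog and 0.65 ± 0.19 for Fa2h. These 4 genes lie below the filter at P0, so this result is not separate from the P14 difference between the mixed wild types.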

How the results depend on the processing

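The counts of called genes were equal under a stricter filter, no filter and all arrays in 1 fit in the comparisons in which these were run, except that Lis1 ko/cko over Lis1 ko/+ at P14 gave 5 without a filter and with all arrays in 1 fit. The replicate block moved no count: it gave 6 genes for Lis1 ko/cko over Lis1 ko/+ and 1 for Lis1 ko/cko over both wild types at P14. With the mean of all probe sets, Lis1 ko/cko over Lis1 ko/+ at P14 gave 4, Lis1 ko/cko over both wild types at P14 gave 0, mixed A over mixed B gave 1 at P0 and 6 at P14, P0 over E14 gave 3 and the rise in mixed A minus mixed B 6. Quantile normalization gave 3 for mixed A over mixed B at P14, 3 for the rise in mixed A minus mixed B and 4 for P0 over E14. Causes of these shifts were not tested. Against mixed B alone the counts were 1 for Lis1 ko/+ and 3 for Lis1 ko/cko at P0, 4 for Lis1 ko/+, 4 for Lis1 ko/cko, 5 for mix-labelled Ndel1 ko/+ and 5 for inbred at P14, 4 for P0 over E14, and, for the rise, 1 in Lis1 ko/cko and 4 in inbred. Against mixed A alone they were 6 for Lis1 ko/cko, 5 for Ndel1 ko/cko and 4 for Ndel1 ko/+ at P14, and, for the rise, 3 in Lis1 ko/cko and 4 in Ndel1 ko/cko.

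Leaving out 1 array at a time gave 0 to 7 genes for Lis1 ko/cko over Lis1 ko/+ at P14, 0 to 1 for the same at P0, 0 to 4 for Lis1 ko/cko over both wild types at P14, 4 to 5 for mixed A over mixed B at P14, 2 to 3 for P0 over E14, 3 to 4 for the rise and 9 for P14 over P0. Directions turned for Mag in Lis1 ko/cko at P14 (-0.47 against mixed A alone, 0.10 against both) and between Mbp probe sets. In Lis1 ko/cko over Lis1 ko/+ at P14 these were 1436201_x_at (-0.33) and 1456228_x_at (-0.39), in mixed A over mixed B 1436201_x_at at P0 (0.53) and 1425263_a_at at P14 (-0.83), and in the rise 1425263_a_at (-1.38). Of 3 runs chosen after seeing the data, 1 moved a count: P0 over E14 without replicates 2 and 3 of mixed A at E14 gave 3. Levels near the bottom of the scale, as for Mog before birth, limit what can be seen there.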

Other observations

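Before birth the Mbp probe sets that rise later varied with the level of 8 genes of hindbrain and spinal cord, Tlx3 and 7 Hox genes. The mean of this list reached 5.6 to 7.14 on 10 of the 24 E14 arrays and 4.61 to 5.16 on the other 14. Mbp probe set 1433532_a_at had a median of 5.54 (4.62 to 6.79) on the 10 arrays and of 4.35 (4.02 to 5.22) on the 14. Its correlation with the list was 0.78 over all 24 arrays, 0.31 within the 10 and 0.71 within the 14. Probe set 1456228_x_at of Mbp had medians of 4.75 and 3.96 on the same arrays, and Cnp, with its used probe set, 9.1 and 8.9. The 10 arrays are the 3 of Ndel1 ko/+, replicates 2 and 3 of Lis1 ko/+, replicate 2 of Lis1 ko/cko, replicate 1 each of 14-3-3 epsilon ko/ko, Dcx ko/Y and mixed A, and replicate 3 of mixed B. The arrays were grouped by their tissue markers after the values were seen, so these are descriptions with no test.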
